A study of Homo sapiens with 9 samples.

Results

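The BCL2 family apoptosis regulators described here are 10 genes, namely MCL1, BCL2L1, BAX, BAK1, PMAIP1, BBC3, BCL2L11, BMF, BIK and BID. They were chosen by gene symbol from a table of 20323 genes. No measured value entered that rule, but earlier results of these data were known when the genes were chosen. Each symbol stands on 1 row of the table, and all 10 genes passed the filter on low counts. The cells were HKC-8, an established human kidney epithelial line described as proximal tubular, and poly(A) RNA was sequenced in 9 libraries. The Wnt1_KP6 group (3 libraries) received a Wnt1 plasmid together with KP6, a peptide derived from the kidney protein Klotho. The Wnt1 group (3 libraries) received the Wnt1 plasmid, and the control group (3 libraries) received the empty vector pcDNA3. All groups are thus one cell line carrying plasmid DNA, and the labels give neither the dose of KP6, nor the time after transfection, nor the share of cells that took up the plasmid. Whether the replicates were separate cultures is not labelled, and the p-values given here therefore reflect no more than how far these libraries scatter, which may be technical.

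The BCL2 family decides whether the outer mitochondrial membrane stays intact. The guardians (MCL1 and BCL-XL, the main product of BCL2L1) hold the effectors BAX and BAK1 in check, and when the effectors are free they form pores through which cytochrome c leaves to activate caspases. The BH3-only proteins (NOXA from PMAIP1, PUMA from BBC3, BIM from BCL2L11, BMF, BIK and BID) respond to different kinds of stress and bind the guardians, and some of them can also engage the effectors directly. In the kidney, tubular epithelium is a main site of this form of cell death after ischaemic or toxic injury.

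Genes of the family differ in the control regions ahead of their start sites. The promoters of PMAIP1 and BBC3 are printed because both genes were higher in every Wnt1_KP6 library than in every control library. MCL1 was so too, Wnt1_KP6 replicate 1 by a narrow margin, but had no promoter entry. Each stretch is the 250 bases before the gene's RefSeq start on GRCh38.p14, read 5′ to 3′ on the gene's own strand, at chr18:59899746-59899995 on the plus strand for PMAIP1 and at chr19:47232668-47232917 on the minus strand for BBC3. The gene coordinates given further below come from another annotation, GENCODE, and for both genes they reach into the stretch. Capitals mark the only match of the searched motifs in each.
PMAIP1: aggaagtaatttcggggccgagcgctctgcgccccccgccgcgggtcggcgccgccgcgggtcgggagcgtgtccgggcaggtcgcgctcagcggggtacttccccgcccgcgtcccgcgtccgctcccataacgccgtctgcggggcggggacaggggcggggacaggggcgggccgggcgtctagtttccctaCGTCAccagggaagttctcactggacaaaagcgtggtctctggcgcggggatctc
BBC3: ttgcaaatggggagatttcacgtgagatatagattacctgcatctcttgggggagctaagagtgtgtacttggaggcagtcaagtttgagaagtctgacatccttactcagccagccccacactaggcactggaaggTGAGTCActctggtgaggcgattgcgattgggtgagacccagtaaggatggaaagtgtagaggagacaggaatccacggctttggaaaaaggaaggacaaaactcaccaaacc
The capitals in PMAIP1 are the reverse complement of TGACG, the core of the cyclic AMP response element that ATF-family factors can bind, at positions -55 to -51 from the start. Those in BBC3 match TGANTCA, the AP-1 site bound by JUN and its partners, at positions -113 to -107. On both strands, TGACG was found in 4 of the 8 members with a promoter entry (PMAIP1, BMF, BAX and BCL2L1) and in 21.2% of 35093 RefSeq promoters of the same length. The AP-1 letters were found in BBC3 alone of the 8 and in 6.57% of all promoters. GTAAACA, a forkhead site that FOXO factors can bind, was found in BCL2L11 alone of the 8 and in 2.98% of all promoters. These matches describe the letters and do not show that any factor was bound.

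Depth was even, with 21199078 to 27507623 expected counts per library. Replicate 1 of every group stood apart from replicates 2 and 3: the first principal component of log2 CPM (counts scaled to library size) held 38.1% of the variance and placed the 3 libraries of replicate 1 at -38.82 to -37.36 and the other 6 at 9.21 to 25.08. Mitochondrial transcripts took 5.18% to 5.72% of counts in replicate 1 and 7.01% to 7.97% in the others. Wnt1_KP6 replicate 1 differed little from Wnt1 replicate 1 (chi-square per degree of freedom 3.45 over genes), a distance like the one between Wnt1 replicates 2 and 3 (3.09). WNT1 itself had 1, 2 and 0 counts in Wnt1_KP6 and 0 counts in each Wnt1 and each control library, so the counts give no check of the plasmid and every direction rests on the labels. Of 12 proximal tubule markers only GGT1 averaged at least 1 CPM in any group, SLC22A6 and SLC22A8 were at 0 in all libraries, and 4 of 6 general renal epithelial markers (PAX8, KRT8, KRT18 and EPCAM) were detected. The fibroblast marker LUM had 42, 0 and 1 counts in Wnt1_KP6 replicates 1 to 3, 66, 0 and 0 in Wnt1 and 64, 3 and 1 in control, and the 7 fibroblast markers summed to 17.6 to 22.9 CPM in Wnt1_KP6, 15.6 to 20.6 in Wnt1 and 21.2 to 39.1 in control. COL1A1 did not share the split of LUM by replicate and lay at 14.65 to 23.73 CPM over the 9 libraries. COL1A2 and COL3A1 had 197 and 98 counts in control replicate 1, 0 and 1 in Wnt1 replicate 1 and 0 and 0 in Wnt1_KP6 replicate 1. No endothelial marker averaged 1 CPM in any group, and of 5 immune markers PTPRC and CD3E were at 0 while the macrophage and lysosome marker CD68 had 26.1 to 50.6 CPM. The immune markers summed to 26.2 to 49.5 CPM in Wnt1_KP6, 27.2 to 50.6 CPM in Wnt1 and 37.6 to 50.5 CPM in control. Whether any of these values plays a part in the results below was not tested. Results are given for all 9 libraries and, for part of the genes, also for replicates 2 and 3 alone. That subset follows the split seen in these same libraries and leaves 2 libraries per group. Its p-values reflect only the scatter between those libraries, and a rise stated for it does not extend to replicate 1.

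MCL1, BCL2L1 and PMAIP1 together held 67.3% to 82.6% of the summed FPKM of the 10 genes in the 9 libraries. Levels between genes are compared on the authors' FPKM scale, fragments scaled to transcript length and library size. In Wnt1_KP6 the order of mean FPKM ran from MCL1 (174.8 ± 79.9, SD, n = 3) through BCL2L1 (76.9 ± 12.9), PMAIP1 (65.8 ± 9), BAX (28.4), BID (21.1), BAK1 (11.8), BCL2L11 (9.04) and BBC3 (7.14) to BMF (3.69) and BIK (3.25). In that group the ranges of neighbours overlapped for MCL1 and BCL2L1, BCL2L1 and PMAIP1, BAX and BID, BAK1 and BCL2L11, and BMF and BIK. In Wnt1 BCL2L1 (84.2 ± 7.04) stood at the top with MCL1 (79.97 ± 3.73) and PMAIP1 (49.9 ± 27.7) after it, and the ranges of each neighbouring pair from BCL2L1 down to BAX overlapped, as did those of BBC3 and BMF and of BMF and BIK. In control BCL2L1 (76.5 ± 8.95) and MCL1 (76.0 ± 5.93) overlapped and stood clear of all other members, while BAX (29.6), PMAIP1 (27.5 ± 7.35) and BID (20.5) formed a run of overlapping neighbours. PMAIP1 thus stood above BAX in mean FPKM in Wnt1_KP6 and in Wnt1, and below it in control.

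The make-up of the 10 genes' RNA stood apart in Wnt1_KP6 replicates 2 and 3. MCL1 took 23.5%, 53.1% and 50.4% of the summed FPKM of the 10 genes in Wnt1_KP6 replicates 1, 2 and 3, against 21.6%, 29.4% and 29.6% in Wnt1 and 27.6%, 29.6% and 30.9% in control. Wnt1_KP6 replicates 2 and 3 are the high libraries, and Wnt1_KP6 replicate 1 lies inside the range of the Wnt1 group. The ratio of MCL1 to PMAIP1, a guardian and the BH3-only protein that binds it, was 1.10, 3.96 and 3.32 in Wnt1_KP6, against 0.928, 2.37 and 2.46 in Wnt1 and 2.02, 2.88 and 3.88 in control. This ratio overlapped between Wnt1_KP6 and both other groups, and it was lowest in replicate 1 of each group. The summed FPKM of the 10 genes was 353, 432 and 421 in Wnt1_KP6, against 352, 274.0 and 281 in Wnt1 and 260.2, 248 and 268 in control. All 3 Wnt1_KP6 libraries were above all Wnt1 and all control libraries in this sum, Wnt1 replicate 1 by a narrow margin. These are RNA levels in bulk cells, in which fewer cells of a type and less RNA per cell cannot be told apart.

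**Figure D1:**
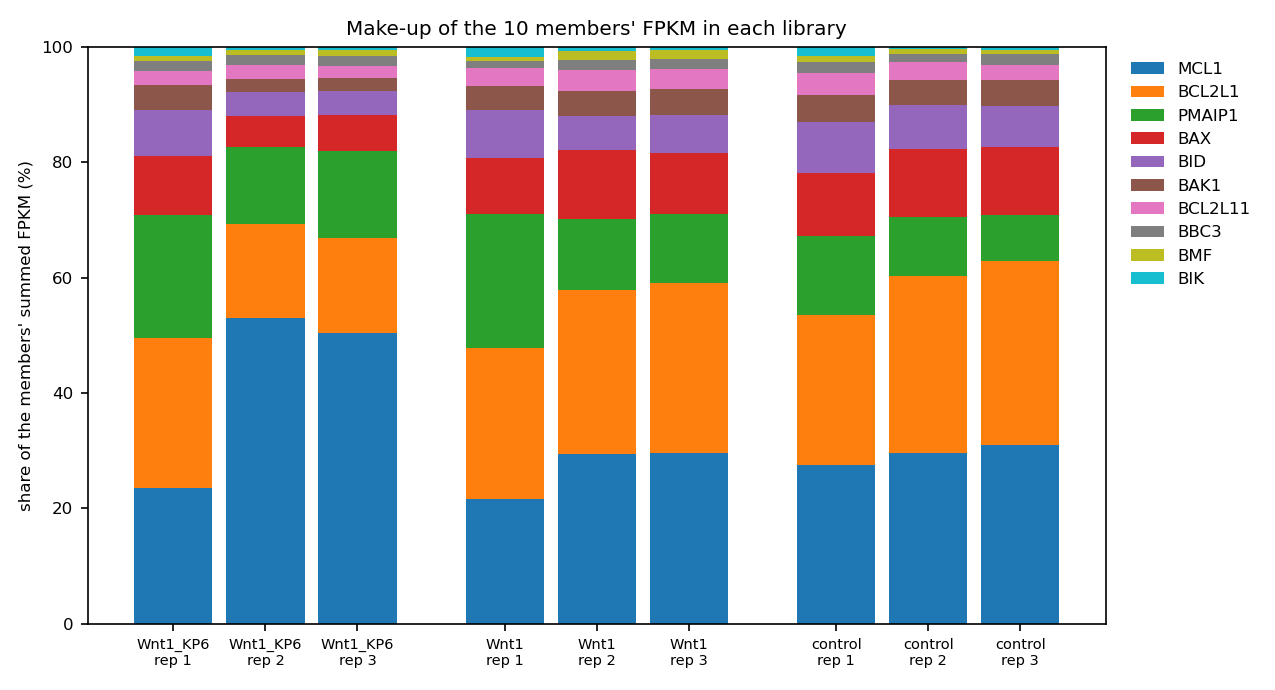
Share of the summed FPKM of the 10 members (y axis, percent) held by each member in each of the 9 libraries (x axis, groups Wnt1_KP6, Wnt1 and control). The MCL1 segment reaches 53.1% and 50.4% in Wnt1_KP6 replicates 2 and 3 and lies between 21.6% and 30.9% in the other 7 libraries.

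Within 1 gene, the CPM of replicates 1, 2 and 3 are listed in that order, scaled with edgeR's TMM factors. Log2 fold changes stand with their standard error (SE) and an adjusted p from edgeR's quasi-likelihood test over all 9 libraries, with Benjamini-Hochberg adjustment over 13153 genes and a threshold of 0.05, unless another fit is named.

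MCL1, a short-lived guardian whose protein depends on continued transcription (ENSG00000143384, hg38 chr1:150574551-150579738, minus strand), had 272, 735 and 713 CPM in Wnt1_KP6, against 270.3, 263 and 272 CPM in Wnt1 and 268, 270 and 262 CPM in control. Wnt1_KP6 replicates 2 and 3 are high, and the other 7 libraries lie between 262 and 272 CPM. For Wnt1_KP6 vs Wnt1 the log2 fold change was 1.09 ± 0.31 (edgeR adjusted p = 1), and for Wnt1_KP6 vs control it was 1.10 ± 0.31 (edgeR adjusted p = 0.151). Neither passed the test over 9 libraries. MCL1 rose in replicates 2 and 3 alone, by 1.43 ± 0.06 against Wnt1 (edgeR adjusted p = 4.12e-10) and by 1.44 ± 0.06 against control (edgeR adjusted p = 1.4e-10). The replicate 1 libraries differed by 0.01 and 0.02 in the same comparisons. Without Wnt1_KP6 replicate 1, with the other 8 libraries in the fit, MCL1 was called against Wnt1 (1.43, edgeR adjusted p = 0.000112) and against control (1.44, edgeR adjusted p = 6.53e-05). DESeq2 over 9 libraries called it against control (adjusted p = 0.00947). The Wnt1 plasmid alone left a log2 difference of 0.01 ± 0.31 against control, and of 0.01 ± 0.06 in replicates 2 and 3 alone. The SE over 9 libraries draws on the spread within all groups, Wnt1_KP6 included.

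BCL2L1 (ENSG00000171552, chr20:31664452-31723989, minus strand) encodes BCL-XL. It had 231, 186 and 183 CPM in Wnt1_KP6, against 232, 197 and 208 CPM in Wnt1 and 166, 190 and 212 CPM in control. All groups overlapped. No comparison passed the edgeR test, with log2 fold changes of -0.09 ± 0.13 for Wnt1_KP6 vs Wnt1, 0.08 ± 0.13 for Wnt1_KP6 vs control and 0.17 ± 0.13 for Wnt1 vs control. Of its exon bases 43.0% lie opposite the gene ABALON, and the counting is not stated to use strand, so its counts are uncertain to that extent. The gene's splice forms BCL-XL and BCL-XS, which act in opposite ways, are not separated in gene counts.

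Neither effector, BAX or BAK1, passed the test in any comparison. BAX (ENSG00000087088, chr19:48954815-48961798, plus strand) had 36.6, 24.5 and 27.7 CPM in Wnt1_KP6, against 33.1, 30.2 and 28.3 CPM in Wnt1 and 26.3, 25.5 and 28.95 CPM in control. BAK1 (ENSG00000030110, chr6:33572547-33580293, minus strand) had 32.8, 23.2 and 22.9 CPM in Wnt1_KP6, against 32.0, 25.8 and 27.5 CPM in Wnt1 and 25.1, 22.6 and 25.4 CPM in control. In both groups with the Wnt1 plasmid replicate 1 was the highest library for each effector. BAK1 was higher in every Wnt1 library than in every control library (0.22 ± 0.15, edgeR adjusted p = 0.638), which did not pass the test. Neither effector passed it in replicates 2 and 3 alone. The log2 fold changes over 9 libraries were -0.04 ± 0.15 (BAX) and -0.11 ± 0.16 (BAK1) for Wnt1_KP6 vs Wnt1, 0.14 ± 0.15 and 0.11 ± 0.16 for Wnt1_KP6 vs control, and for BAX 0.18 ± 0.15 in Wnt1 vs control. In replicates 2 and 3 the sign against control turned for Wnt1_KP6, at -0.06 for each effector.

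PMAIP1 encodes NOXA, a BH3-only protein that binds chiefly MCL1 and BCL2A1 and is induced by several stress-activated factors (ENSG00000141682, chr18:59899948-59904306, plus strand). It had 137.5, 113 and 126 CPM in Wnt1_KP6, against 149.8, 63.7 and 63.0 CPM in Wnt1 and 64.6, 47.5 and 39.3 CPM in control. All Wnt1_KP6 libraries were above all control libraries, and Wnt1 replicate 1 was the highest of the 9. For Wnt1_KP6 vs control the log2 fold change was 1.32 ± 0.34 (edgeR adjusted p = 0.133), which did not pass over 9 libraries. With the replicate number as a block, for which no label names a pairing, it was 1.36 ± 0.21 and was called (edgeR adjusted p = 0.040). It was also called without Wnt1 replicate 1 (1.32, edgeR adjusted p = 0.0388) and by DESeq2 over 9 libraries (adjusted p = 0.00303). Against control, the difference was 1.09 in replicate 1 and 1.46 ± 0.09 in replicates 2 and 3 (edgeR adjusted p = 2.5e-08). For Wnt1 vs control the log2 fold change was 0.87 ± 0.34 (edgeR adjusted p = 0.386). PMAIP1 rose by 0.55 ± 0.09 there when replicates 2 and 3 were fitted alone (edgeR adjusted p = 0.000636), and the replicate 1 libraries differed by 1.21. For Wnt1_KP6 vs Wnt1 it was 0.45 ± 0.34 (edgeR adjusted p = 1), but 0.92 ± 0.09 when replicates 2 and 3 were fitted alone (edgeR adjusted p = 8.4e-06), and -0.12 between the replicate 1 libraries.

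BBC3 encodes PUMA, a BH3-only protein that binds all guardians (ENSG00000105327, chr19:47220822-47232766, minus strand). It had 10.6, 14.2 and 13.8 CPM in Wnt1_KP6, against 8.02, 8.55 and 8.05 CPM in Wnt1 and 7.59, 5.75 and 8.78 CPM in control. Every Wnt1_KP6 library was above every Wnt1 and every control library, replicate 1 included. Among the 10 genes only BBC3 had this order against both groups, since the ranges of MCL1 overlapped between Wnt1_KP6 and Wnt1 by a fraction of 1 CPM. The log2 fold change was 0.65 ± 0.18 for Wnt1_KP6 vs Wnt1 (edgeR adjusted p = 1, unadjusted p = 0.00528) and 0.81 ± 0.18 for Wnt1_KP6 vs control (edgeR adjusted p = 0.089). Neither passed over 9 libraries. BBC3 rose in replicates 2 and 3 alone, by 0.76 ± 0.16 against Wnt1 (edgeR adjusted p = 0.00901) and by 0.95 ± 0.16 against control (edgeR adjusted p = 0.00044). The call against control was also made by DESeq2 over 9 libraries (adjusted p = 0.00535), by edgeR without control replicate 1 (0.83, adjusted p = 0.0453) and by edgeR without Wnt1_KP6 replicate 1 (0.93, adjusted p = 0.0223). Wnt1 and control overlapped, with a log2 fold change of 0.15 ± 0.18 (edgeR adjusted p = 0.821).

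BCL2L11 and BMF were lowest in replicates 2 and 3 of control. BCL2L11 encodes BIM, a broad binder of guardians that FOXO factors induce (ENSG00000153094, chr2:111119378-111168447, plus strand). It had 37.0, 37.7 and 37.7 CPM in Wnt1_KP6, against 39.4, 38.7 and 37.3 CPM in Wnt1 and 41.4, 26.9 and 26.5 CPM in control. Control replicate 1 was the highest of the 9 libraries. The log2 fold change was 0.25 ± 0.16 for Wnt1_KP6 vs control (edgeR adjusted p = 0.519) and 0.28 ± 0.16 for Wnt1 vs control (edgeR adjusted p = 0.553). Without control replicate 1 BCL2L11 was called in both, at 0.49 (edgeR adjusted p = 0.00961) and 0.53 (edgeR adjusted p = 0.00816). It rose in replicates 2 and 3 alone, by 0.50 ± 0.08 in Wnt1_KP6 (edgeR adjusted p = 0.000311) and by 0.51 ± 0.08 in Wnt1 (edgeR adjusted p = 0.000367), each against control. Of its exon bases 10.9% lie opposite MIR4435-2HG.

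BMF, a BH3-only protein held at the cytoskeleton in healthy cells (ENSG00000104081, chr15:40087890-40108892, minus strand), had 10.6, 15.7 and 17.0 CPM in Wnt1_KP6, against 10.6, 16.5 and 19.4 CPM in Wnt1 and 12.02, 8.61 and 8.16 CPM in control. Replicate 1 was the lowest library of each group with the Wnt1 plasmid and the highest of control. The log2 fold change was 0.59 ± 0.26 for Wnt1_KP6 vs control (edgeR adjusted p = 0.322) and 0.69 ± 0.26 for Wnt1 vs control (edgeR adjusted p = 0.371). The replicate 1 difference was -0.18 in both. BMF rose in replicates 2 and 3 alone, by 0.96 ± 0.12 in Wnt1_KP6 (edgeR adjusted p = 3.19e-05) and by 1.10 ± 0.12 in Wnt1 (edgeR adjusted p = 1.27e-05), the largest member change there for the Wnt1 plasmid alone. Neither BCL2L11 (-0.04 ± 0.16) nor BMF (-0.10 ± 0.26) passed the edgeR test for Wnt1_KP6 vs Wnt1. Of the exon bases of BMF 8.46% lie opposite BMF-AS1.

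BIK and BID were highest in replicate 1 of every group. BIK, a BH3-only protein of the endoplasmic reticulum (ENSG00000100290, chr22:43110748-43129712, plus strand), had 5.34, 2.13 and 1.92 CPM in Wnt1_KP6, against 5.50, 1.66 and 1.34 CPM in Wnt1 and 3.52, 0.916 and 1.16 CPM in control. Its replicate 1 value was well above the others within each group. BID, the substrate of caspase-8 that links death receptors to mitochondria (ENSG00000015475, chr22:17734138-17774770, minus strand), had 32.3, 23 and 22.3 CPM in Wnt1_KP6, against 33.8, 19.5 and 21.4 CPM in Wnt1 and 28.8, 21.1 and 22.7 CPM in control. Groups overlapped for both genes. The log2 fold change for Wnt1_KP6 vs control was 0.75 ± 0.71 for BIK (edgeR adjusted p = 0.679) and 0.10 ± 0.23 for BID (edgeR adjusted p = 0.896). BIK rose against control in Wnt1_KP6 replicates 2 and 3 by 0.96 ± 0.29 (edgeR adjusted p = 0.0174), on the lowest counts of the 10 genes. For Wnt1_KP6 vs Wnt1 the values were 0.14 ± 0.70 (BIK) and 0.05 ± 0.23 (BID), and for Wnt1 vs control 0.61 ± 0.71 and 0.04 ± 0.23, and none passed.

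**Figure D2:**
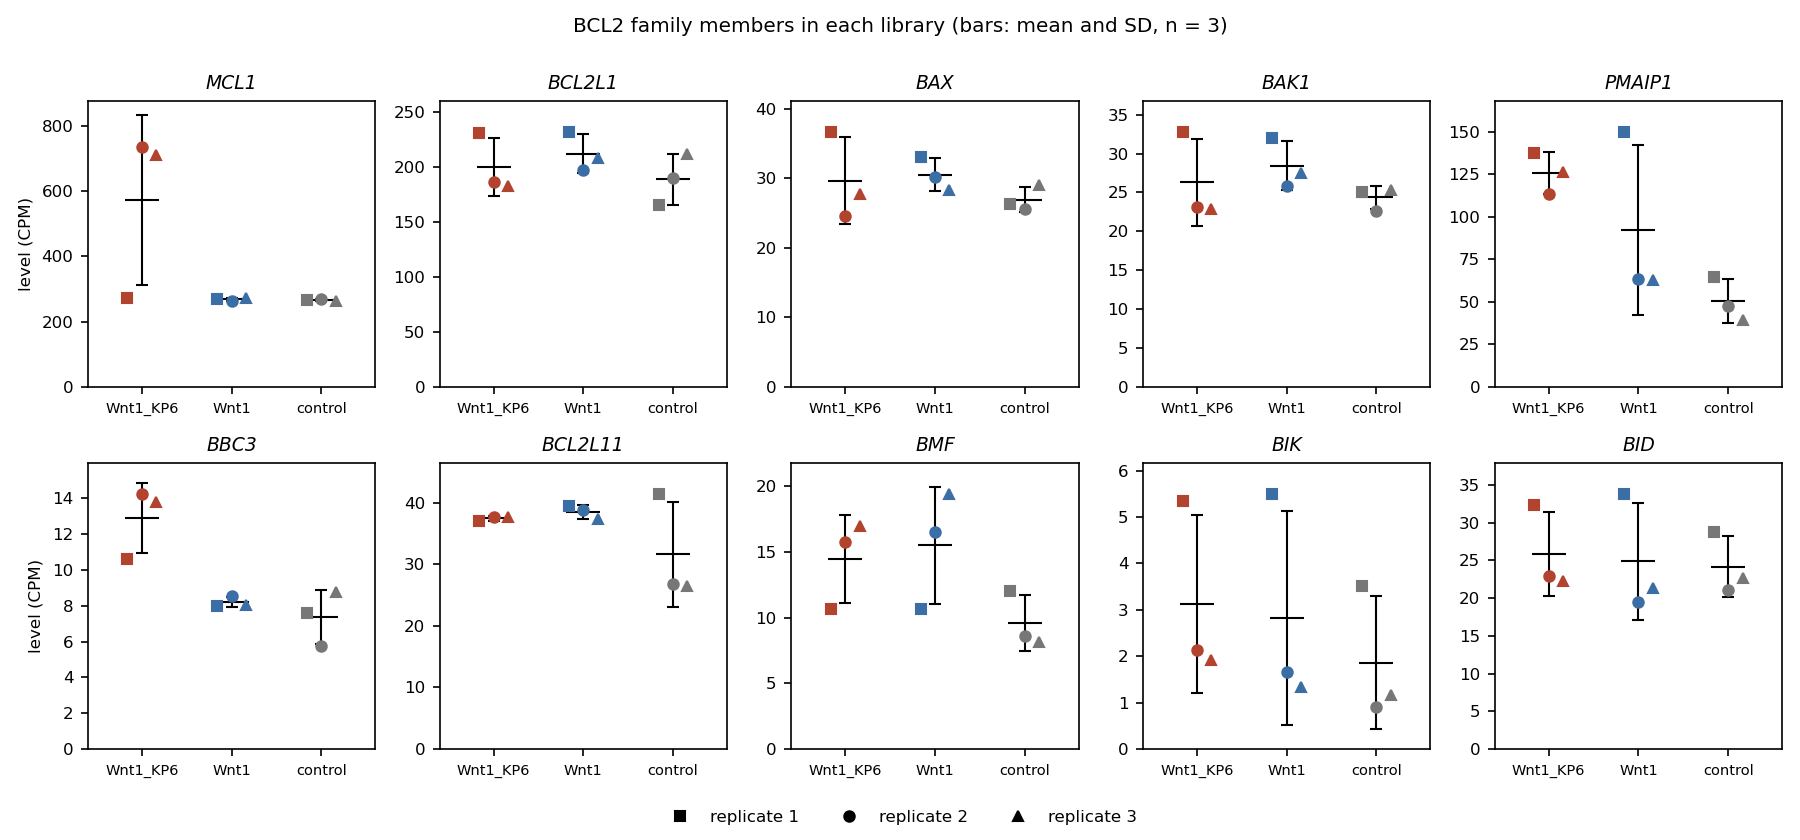
CPM of each member in every library (y axis from 0, x axis groups Wnt1_KP6, Wnt1 and control; squares, circles and triangles are replicates 1, 2 and 3; bars are mean and SD of 3 libraries). MCL1 stands at 735 and 713 CPM in Wnt1_KP6 replicates 2 and 3 and between 262 and 272 CPM elsewhere, and BBC3 is the member with all Wnt1_KP6 points above both other groups.

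Over all 9 libraries edgeR called none of the 10 members in any of the 3 comparisons, which are given here in the order Wnt1_KP6 vs Wnt1, Wnt1_KP6 vs control and Wnt1 vs control. At an unadjusted p under 0.05 there were 2 (MCL1 and BBC3), 3 (MCL1, PMAIP1 and BBC3) and 2 (PMAIP1 and BMF) members in these comparisons, where 2.76%, 15.8% and 11.2% of all genes had such a p. Over all genes edgeR called 0% of 13153 genes for Wnt1_KP6 vs Wnt1, 0.228% for Wnt1_KP6 vs control and 0.122% for Wnt1 vs control. DESeq2 called 0, 3 and 0 members, where it called 0.152%, 5.12% and 2.3% of all genes. With the replicate block edgeR called 0, 1 (PMAIP1) and 0 members, against 0%, 1.13% and 0.722% of all genes. In 3 of 10 members (MCL1, PMAIP1 and BBC3) all Wnt1_KP6 libraries were above all control libraries, where 8.71% of all genes were. BBC3 alone was so against Wnt1, where 2.87% of all genes were, and BAK1 alone was higher in all Wnt1 than in all control libraries, where 8.67% of all genes were. For MCL1 the margin over control was narrow, with 271.5 CPM in Wnt1_KP6 replicate 1 and up to 270 CPM in control.

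In replicates 2 and 3 alone edgeR called 3 members higher in Wnt1_KP6 vs Wnt1 (MCL1, PMAIP1 and BBC3), where 6.06% of 13041 genes were higher. It called 6 higher in Wnt1_KP6 vs control (those 3 with BCL2L11, BMF and BIK), where 21.1% of genes were higher, and 3 higher in Wnt1 vs control (PMAIP1, BCL2L11 and BMF), where 16.3% were. No member was called lower, where 2.56%, 19.5% and 15.3% of genes were. These comparisons share libraries, so their lists are given side by side only. The members' median log2 fold change over 9 libraries was 0.01 for Wnt1_KP6 vs Wnt1, 0.42 for Wnt1_KP6 vs control and 0.20 for Wnt1 vs control, where the median of all tested genes was 0, -0.01 and 0. Of the members 5, 10 and 10 had a value above 0, some of them smaller than their SE, such as MCL1 in Wnt1 vs control (0.01 ± 0.31). In replicates 2 and 3 alone 5, 7 and 9 had a value above 0. The share of all genes above 0 was not counted.

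**Figure D3:**
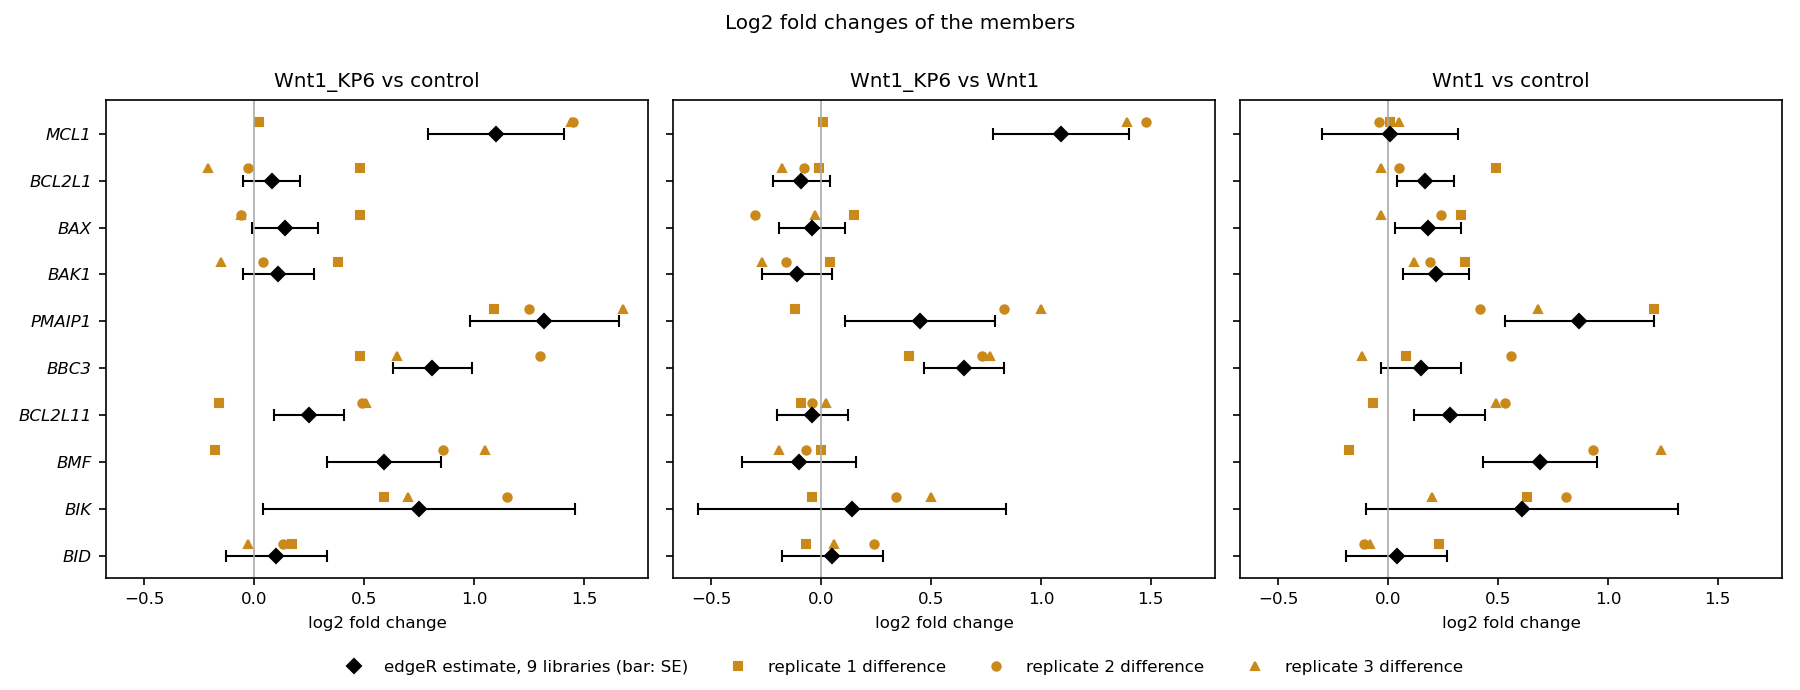
Log2 fold change (x axis) of each member (y axis) in Wnt1_KP6 vs control, Wnt1_KP6 vs Wnt1 and Wnt1 vs control; black diamonds are the edgeR estimates over 9 libraries with SE bars, and orange points are the differences of same-numbered replicates. MCL1 in Wnt1_KP6 vs control lies at 0.02 in replicate 1, far from replicates 2 and 3 (mean 1.44), while the 3 PMAIP1 points lie together above 1.

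Of 13 further family genes 11 were tested, and none was called by edgeR over 9 libraries in any comparison (at an unadjusted p under 0.05, 1 in Wnt1_KP6 vs Wnt1, 2 in Wnt1_KP6 vs control and 3 in Wnt1 vs control; none by DESeq2). The mitophagy receptors BNIP3 (44.0 to 124.2 FPKM over the 9 libraries) and BNIP3L (44.7 to 79.9 FPKM) were the highest, and BCL2L12 (23.4 to 37.7), BCL2L13 (13.6 to 17.6), the BH3-only BAD (12.6 to 22.0) and the effector relative BOK (7.52 to 16.3) followed. BCL2, the founding guardian, had 3.47 to 7.15 FPKM, far under MCL1 and BCL2L1, and the guardian BCL2L2 had 6.57 to 9.36 FPKM. BCL2A1 had 1.5 to 6.66, BCL2L15 0.135 to 3.15, the BH3-only HRK 0.006 to 0.170 and BCL2L14 0 to 0.113 FPKM, and BCL2L10 had 0 counts in all 9 libraries.

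BCL2A1, a guardian that is a target of NF-kB and a binding partner of NOXA, had 2.87, 4.51 and 4.65 CPM in Wnt1_KP6, against 2.84, 1.19 and 1.67 CPM in Wnt1 and 2.15, 5.06 and 4.58 CPM in control. It was low in Wnt1 replicates 2 and 3. Its log2 fold change was 1.07 ± 0.41 for Wnt1_KP6 vs Wnt1 (edgeR adjusted p = 1) and -1.04 ± 0.41 for Wnt1 vs control (edgeR adjusted p = 0.388), and in replicates 2 and 3 it was called in both, at 1.66 ± 0.22 (edgeR adjusted p = 0.000152) and -1.74 ± 0.22 (edgeR adjusted p = 4.08e-05). HRK had 17, 8 and 13 counts in Wnt1_KP6, against 27, 13 and 13.05 expected counts in Wnt1 and 9, 1 and 1 counts in control, too few for a fold change to be read. Without control replicate 1 edgeR called HRK against control in Wnt1_KP6 (adjusted p = 0.018) and in Wnt1 (adjusted p = 0.0136). Those calls rest on 1 and 1 control counts and are not read as a change. BCL2L13, a mitochondrial relative, was 0.27 ± 0.08 higher in Wnt1_KP6 than in control (edgeR adjusted p = 0.158) and 0.22 ± 0.08 higher in Wnt1 than in control (edgeR adjusted p = 0.338). BOK had -0.40 ± 0.25 for Wnt1_KP6 vs control (edgeR adjusted p = 0.489), but -0.67 and a call without control replicate 1 (edgeR adjusted p = 0.0121) and -0.65 ± 0.10 in replicates 2 and 3 alone (edgeR adjusted p = 0.000144). BCL2 had 0.25 ± 0.31 for Wnt1_KP6 vs Wnt1 (edgeR adjusted p = 1). In replicates 2 and 3 the family genes called higher and lower numbered 1 and 0 against Wnt1 in the Wnt1_KP6 group, 2 and 3 against control in the same group, and 2 and 3 in Wnt1 vs control. Of all genes 6.06% and 2.56%, 21.1% and 19.5%, and 16.3% and 15.3% were called higher and lower in these fits. HRK, with its few counts, was 1 of the 2 family genes called higher in each comparison with control.

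Among 43 genes upstream and downstream of the family, 41 were tested and edgeR called 1 over 9 libraries. That gene was TNFRSF10A, a receptor for the death ligand TRAIL, with 20.7, 22.8 and 22.3 CPM in Wnt1_KP6, against 18.4, 20.7 and 19.4 CPM in Wnt1 and 14.4, 13.2 and 13.6 CPM in control. Both groups with the Wnt1 plasmid were above control in every library. TNFRSF10A rose by 0.67 ± 0.10 in Wnt1_KP6 vs control (edgeR adjusted p = 0.0383), and its value in Wnt1 vs control was 0.50 ± 0.10 (edgeR adjusted p = 0.114), where DESeq2 (adjusted p = 0.00283) and edgeR without control replicate 1 (0.54, adjusted p = 0.0196) called it. The call for Wnt1_KP6 vs control was lost when replicate 2 or 3 of control (edgeR adjusted p = 0.276 and 0.139), of Wnt1 (0.109 and 0.114) or of Wnt1_KP6 (0.264 and 0.217) was left out, with log2 fold changes of 0.64 to 0.67. TNFRSF10B, the other agonist TRAIL receptor, had 256, 432 and 412 CPM in Wnt1_KP6, against 277, 238 and 243 CPM in Wnt1 and 211, 156 and 149 CPM in control. Its log2 fold change was 0.54 ± 0.21 for Wnt1_KP6 vs Wnt1 (edgeR adjusted p = 1) and 1.09 ± 0.21 for Wnt1_KP6 vs control (edgeR adjusted p = 0.0691). For Wnt1 vs control it was 0.56 ± 0.21 (edgeR adjusted p = 0.362). In replicates 2 and 3 alone edgeR called TNFRSF10B higher in each comparison. The values were 0.81 (adjusted p = 2.82e-07), 1.47 (adjusted p = 2.17e-10) and 0.66 (adjusted p = 1.99e-06) in the same order. PPIF encodes cyclophilin D, a regulator of the mitochondrial permeability pore. It had 206, 359 and 316 CPM in Wnt1_KP6, against 230.5, 335 and 324 CPM in Wnt1 and 118, 114 and 119 CPM in control. All libraries with the Wnt1 plasmid were above all control libraries. Its log2 fold change was 1.33 ± 0.21 for Wnt1_KP6 vs control (edgeR adjusted p = 0.0509) and 1.34 ± 0.21 for Wnt1 vs control (edgeR adjusted p = 0.0684), and with the replicate block it was called in both (edgeR adjusted p = 0.0161 and 0.0158). DESeq2 over 9 libraries called it in both (adjusted p = 6.75e-07 and 8.17e-07), as did edgeR without control replicate 1 (adjusted p = 0.0204 and 0.0222) and without Wnt1_KP6 replicate 1 (adjusted p = 0.00109 and 0.0146). Without Wnt1 replicate 1 edgeR called it against control in Wnt1_KP6 (adjusted p = 0.0441).

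None of the transcription factors named here, which are known to induce BH3-only genes, was called by edgeR over 9 libraries, whereas DESeq2 called 3 of them, DDIT3, JUN and ATF3, in Wnt1_KP6 vs control. DDIT3 (CHOP), a factor of the endoplasmic reticulum stress response that can induce BIM and PUMA, had 41.6, 86.2 and 77.4 CPM in Wnt1_KP6, against 46.2, 64.1 and 63.0 CPM in Wnt1 and 26.2, 16.5 and 17.4 CPM in control. JUN had 169, 714 and 713 CPM in Wnt1_KP6, against 184, 229.7 and 225 CPM in Wnt1 and 88.0, 108 and 125 CPM in control. ATF3, a stress-induced factor, had 25.4, 668 and 664 CPM in Wnt1_KP6, against 30.3, 93.9 and 93.4 CPM in Wnt1 and 18.3, 7.84 and 8.78 CPM in control. As for MCL1, the Wnt1_KP6 libraries of replicates 2 and 3 were the high ones for JUN and ATF3. Unlike MCL1, both genes were also higher in every Wnt1 library than in every control library. For Wnt1_KP6 vs control the log2 fold changes were 1.77 ± 0.29 for DDIT3 (edgeR adjusted p = 0.0584), 2.31 ± 0.47 for JUN (edgeR adjusted p = 0.0796) and 5.28 ± 1.13 for ATF3 (edgeR adjusted p = 0.0882). DESeq2 gave adjusted p = 5.6e-07 for DDIT3, 4.22e-06 for JUN and 4.79e-05 for ATF3. Leaving out Wnt1_KP6 replicate 1 brought edgeR calls against control for DDIT3 (2.03, adjusted p = 0.00148), JUN (2.74, adjusted p = 6.65e-05) and ATF3 (5.84, adjusted p = 0.00163). Leaving out control replicate 1 brought that of DDIT3 (2.01, adjusted p = 0.0107). For Wnt1_KP6 vs Wnt1 JUN (1.32 ± 0.46) and ATF3 (2.64 ± 0.99) had the smallest p of the 41 genes and an edgeR adjusted p of 1. Both were called against Wnt1 without Wnt1_KP6 replicate 1 (JUN 1.74, edgeR adjusted p = 0.000821; ATF3 3.2, edgeR adjusted p = 0.0308), and in replicates 2 and 3 alone (JUN 1.65, edgeR adjusted p = 8.57e-10; ATF3 2.83, edgeR adjusted p = 1.27e-12). For Wnt1 vs control DDIT3 had 1.52 ± 0.29 (edgeR adjusted p = 0.121, DESeq2 adjusted p = 6.99e-05). It was called by edgeR without control replicate 1 (1.76, adjusted p = 0.0187) or Wnt1_KP6 replicate 1 (1.52, adjusted p = 0.0319). In the same comparison JUN had 0.99 (edgeR adjusted p = 0.457) and ATF3 had 2.64 (edgeR adjusted p = 0.379). Replicates 2 and 3 alone gave edgeR calls for JUN (0.97, adjusted p = 2.34e-07) and ATF3 (3.5, adjusted p = 2.6e-12). JUN was also called without Wnt1_KP6 replicate 1 (0.99, edgeR adjusted p = 0.0397). TP73 (-0.19 ± 0.20), FOXO3 (0.20 ± 0.10), ATF4 (0.24 ± 0.14) and E2F1 (0.10 ± 0.16) did not pass in Wnt1_KP6 vs control, and TP63 and FOXO1 were too low to test. In Wnt1_KP6 vs Wnt1 and Wnt1 vs control the values of these 4 factors lay between -0.11 and 0.25, and none passed over 9 libraries. With replicates 2 and 3 fitted alone, edgeR called FOXO3 (0.35, adjusted p = 0.000874) and ATF4 (0.24, adjusted p = 0.00526) higher in Wnt1_KP6 vs control. ATF4 was also called higher there in Wnt1_KP6 vs Wnt1 (0.35, edgeR adjusted p = 0.00142), while TP73 and E2F1 were called in no comparison. Over the 41 genes edgeR called 0, 1 and 0 higher in Wnt1_KP6 vs Wnt1, Wnt1_KP6 vs control and Wnt1 vs control and none lower. DESeq2 called 0, 6 and 3 higher, and in replicates 2 and 3 alone edgeR called 11, 19 and 11 higher and 1, 3 and 3 lower. Over all genes DESeq2 called 0.152%, 5.12% and 2.3% in either direction, and in replicates 2 and 3 edgeR called 6.06%, 21.1% and 16.3% higher and 2.56%, 19.5% and 15.3% lower. The median log2 fold change of the 41 genes was 0.03, 0.14 and 0.07 in these comparisons.

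**Figure D4:**
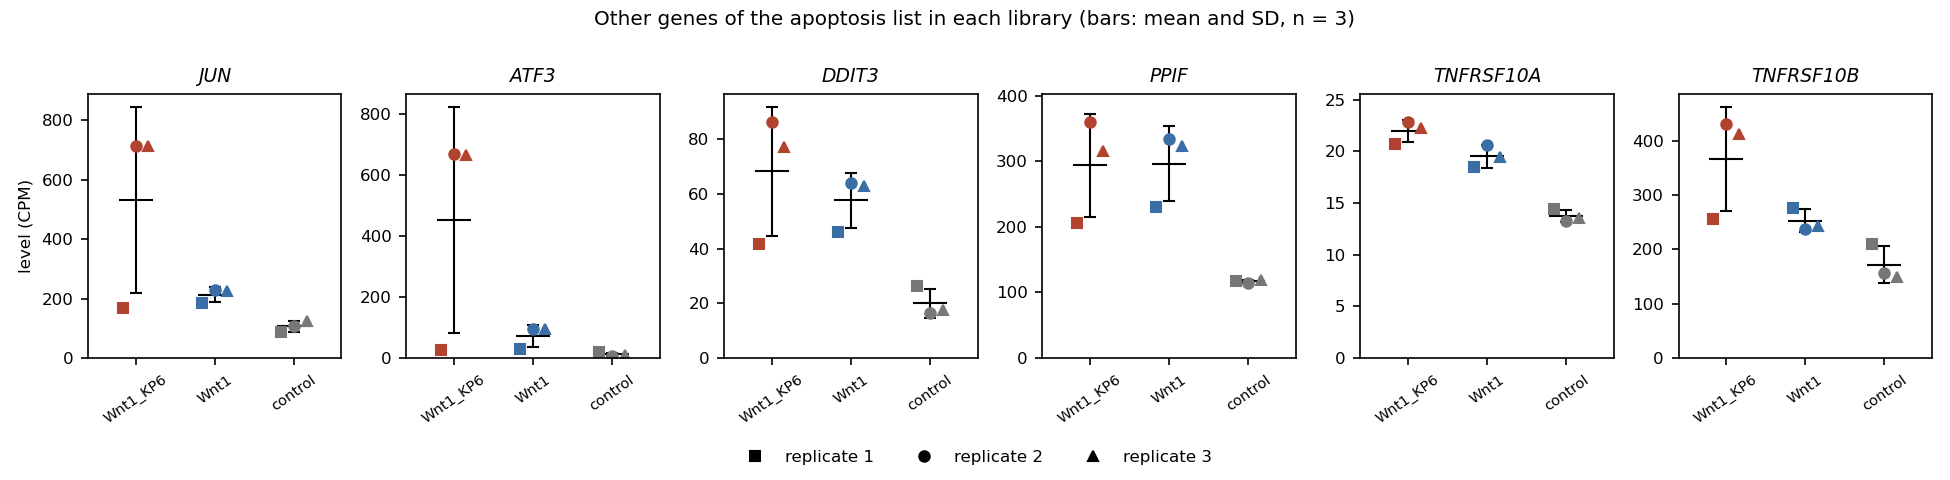
CPM of 6 genes around the family in every library (y axis from 0, x axis groups Wnt1_KP6, Wnt1 and control; symbols are replicates and bars are mean and SD of 3 libraries). PPIF and TNFRSF10A lie above control in every Wnt1 and Wnt1_KP6 library, as do ATF3 and JUN, which are highest in Wnt1_KP6 replicates 2 and 3.

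The members whose log2 CPM varied most over the 9 libraries, at a mean of at least 5 CPM, were PMAIP1 (SD 0.71) and MCL1 (SD 0.63). Likeness to each was measured as Pearson's r of log2 CPM over the 9 libraries, among 10604 genes, as a description of libraries that share the split by replicate. The genes most like PMAIP1 were KLF4 (r = 0.976), ADM (r = 0.973) and MAPRE3 (r = 0.966). KLF4, a zinc finger transcription factor, had 66.0, 38.8 and 31.5 CPM in Wnt1_KP6, against 64.2, 10.6 and 11.3 CPM in Wnt1 and 10.6, 2.71 and 3.12 CPM in control. As for PMAIP1, Wnt1 replicate 1 lay with the Wnt1_KP6 libraries. The genes most like MCL1 were NR4A2, WEE1 and PRXL2C (r = 0.991 each). NR4A2, an immediate early nuclear receptor, had 3.62, 133 and 127 CPM in Wnt1_KP6, against 4.58, 3.47 and 3.59 CPM in Wnt1 and 2.25, 2.27 and 2.93 CPM in control. WEE1, a kinase that delays entry into mitosis, had 53.3, 163 and 162 CPM in Wnt1_KP6, against 52.6, 50.7 and 49.3 CPM in Wnt1 and 62.2, 54.6 and 51.6 CPM in control. In both genes Wnt1_KP6 replicates 2 and 3 stand apart from the other 7 libraries, as they do in MCL1.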

How the data were processed

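Per the labels' protocols, libraries were made from oligo(dT)-selected mRNA with a NEBNext Ultra kit not stated to keep strand. The submitters' processing notes name RSEM, StringTie 1.3.1, HISAT2, Bowtie2 2.2.8, fastp 0.18.0 and build hg38, without saying what each did. Per the file headers, every gene has for each library an FPKM and an expected count, both computed by the authors (an expected count is an estimated count that need not be whole; 87.6% were whole). An estimated count shares reads between similar genes.

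Here expected counts were rounded, and filterByExpr of edgeR (count of at least 10, total of at least 15) left 13153 genes. edgeR 4.0.16 (R 4.3.3) gave TMM factors and a robust two-sided quasi-likelihood test over 9 libraries with 3 group means, Benjamini-Hochberg adjusted over these genes. Each SE given with an edgeR value was the size of the log2 fold change over the square root of the test's F statistic. Log2 CPM used a prior count of 2. Replicate numbers come from the sample titles, and the labels name no pairing. Deviations from the group means were correlated between same-numbered libraries (r of 0.11 to 0.67 in 9 pairs). Differently numbered libraries among replicates 2 and 3 had r of 0.15 to 0.40. Beyond the split of replicate 1 from the others the numbers thus show little pairing, and the fit with a replicate block rests on no labelled pairing. Alternatives were DESeq2 1.42.0, other scaling, no filter, the block, the 2 groups compared alone, replicates 2 and 3 alone, limma 3.58.1 on log2(FPKM + 0.1), and each library left out. The fit was tested on simulated data with independent libraries and no split of replicate 1 from the others, so that test does not cover data split in this way. Where no read was counted, up to 3 counts (0.105 to 0.142 CPM in a library) remain possible, for counting error only. Coordinates, 1-based, come from GENCODE release 29, which matched 20171 of 20323 IDs; for DDIT3, on more than 1 row, the row with the largest counts was used. Promoters are RefSeq's (GRCh38.p14), matched by symbol for 8 of 10 members. The members and lists were chosen with earlier results of these data known. All members were named, along with the called genes and the 3 with the smallest p of each further list per comparison, the listed transcription factors (a few list entries are not reported here), and the 3 genes most like each of the 2 most variable members.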

Additional observations from a re-analysis of the deposited data

How the results depend on the processing

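Of 480 values of the 10 members under the alternatives, 435 kept their direction and their side of the threshold, 23 passed it in addition and 22 changed sign, none of them called. No member was called in the fit described, so no call could be lost. In replicates 2 and 3 alone the sign turned for BID in Wnt1 vs control (-0.09) and, in Wnt1_KP6 vs control, for BCL2L1 (-0.12), BAX (-0.06) and BAK1 (-0.06); limma on FPKM turned it for BAX in Wnt1_KP6 vs control (-0.08). Leaving out 1 library gave ranges across 0 in Wnt1_KP6 vs Wnt1 for BAX (-0.22 to 0.08), BMF (-0.31 to 0.09), BIK (-0.49 to 1.07) and BID (-0.14 to 0.34), in Wnt1_KP6 vs control for BCL2L1 (-0.03 to 0.17), BAX (-0.04 to 0.25), BAK1 (-0.08 to 0.20) and BID (-0.10 to 0.24), and in Wnt1 vs control for BIK (-0.32 to 1.46) and BID (-0.24 to 0.19). Members called were 3, 6 and 3 in replicates 2 and 3 alone for Wnt1_KP6 vs Wnt1, Wnt1_KP6 vs control and Wnt1 vs control, 0 to 1, 0 to 2 and 0 to 1 with 1 library left out, and, in Wnt1_KP6 vs control, 3 by DESeq2 and 1 with the replicate block. All genes called in Wnt1_KP6 vs Wnt1 numbered 0 in the edgeR fit described, 20 by DESeq2, 1124 in replicates 2 and 3 alone and 0 to 214 with 1 library left out. In Wnt1_KP6 vs control they numbered 30 as described, 674 by DESeq2, 149 with the replicate block, 0 with the 2 groups alone, 5293 in replicates 2 and 3 alone, 19 by limma and 0 to 1198 with 1 library left out. In Wnt1 vs control they numbered 16 as described, 302 by DESeq2, 95 with the replicate block, 9 with the 2 groups alone, 4115 in replicates 2 and 3 alone and 0 to 879 with 1 library left out. The replicate block changed no other member's call than that of PMAIP1. TNFRSF10A lost its call in Wnt1_KP6 vs control with the 2 groups alone (adjusted p = 0.179) and by limma (adjusted p = 0.082). The cause of these changes was not tested. BIK and HRK are the genes most limited by depth.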
